A study of Mus musculus with 10 samples.

Results

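The receptors and signal carriers of interleukin-1 (IL-1), interleukin-6 (IL-6) and tumour necrosis factor (TNF) were followed in mouse liver as 10 genes: the ligands Il1b and Il1rn, the receptor chains Il1r1, Il1rap, Il6ra, Il6st, Tnfrsf1a and Tnfrsf1b, and the signalling genes Stat3 and Socs3. They were taken by symbol from a count table of 19764 genes, and all 10 were found. RNA came from whole liver of female mice fasted for 8 h from ZT12, when the active phase begins. The 5 GRMAC libraries carried a floxed glucocorticoid receptor gene and 1 copy of LysM-Cre (LysM-Cre+/-), a Cre that is driven by the lysozyme M gene and acts in macrophages and other myeloid cells. The 5 GRflox libraries came from littermates with the floxed gene; no Cre is given for them, so LysM-Cre itself and loss of the receptor cannot be told apart. Hepatocytes and other cells outside the myeloid lineage keep the receptor in this model, there were no fed mice, and the age of the mice is not given in the sources used here. The labels number the libraries but do not say that each is a separate animal, so p-values measure the spread between libraries.

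IL-1 beta is made mainly by activated macrophages and monocytes. It binds IL1R1, which then recruits the accessory chain IL1RAP, whereas IL1RN, the IL-1 receptor antagonist, binds the same receptor without signalling. IL-6 binds IL6RA and the shared chain IL6ST, which switches on the transcription factor STAT3 in hepatocytes. STAT3 drives acute phase genes and also Socs3, whose product blocks IL6ST and so ends the signal. TNF acts through TNFRSF1A, found on most cells, and TNFRSF1B, found chiefly on immune and endothelial cells. Glucocorticoids are known to restrain the making of IL-1 beta and TNF by macrophages. The comparison therefore asks whether these genes differ in fasted liver once the receptor gene is deleted in myeloid cells.

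Library totals were 25697931 to 27692528 counts in GRflox and 23258884 to 26116916 in GRMAC. Values are CPM, counts relative to the size of the library, scaled by TMM, a factor that evens out library composition; 3 counts in a library correspond to 0.108 to 0.129 CPM. Hepatocyte markers, Alb and Apoa1 among them, were all 11 measured, and their summed level was 132000 to 148000 CPM in GRflox and 127000 to 151000 CPM in GRMAC. Nr3c1, which encodes the glucocorticoid receptor, had means of 72.8 ± 7.14 (GRflox) and 82.5 ± 7.75 CPM (GRMAC; SD, n = 5; adjusted p = 0.277, edgeR), and a whole-gene count in whole liver cannot show the deletion in myeloid cells. Expression relative to each gene's mean fell or rose with the GC content of the transcript by library: the slope, in log2 units per 10 points of GC, was 0.00766 to 0.0698 in GRflox and −0.0542 to 0.00928 in GRMAC. Its part in the results below was not tested beyond a fit corrected for GC content and length, in which none of the 10 genes passed.

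None of the 10 genes differed between the genotypes at an adjusted p under 0.05 with edgeR's quasi-likelihood test with no block for replicate numbers, where 22 of all 12558 tested genes (0.175%) did. At an unadjusted p under 0.05 there were 2 of the 10, Tnfrsf1b (lower) and Stat3 (higher), beside 16.3% of all tested genes. DESeq2 and limma-voom, run on the same counts, also called none of the 10. The authors' deposited table gives the same rounded fold changes and adjusted p for the 10 as that DESeq2 run, so it is not a separate check. None of the 10 was under 0.05 there (adjusted p from 0.115 to 0.994), where 3.33% of its genes were. For every one of the 10 the CPM ranges of the genotypes overlapped; the ranges of 4.05% of all tested genes did not. Of the 10 fold changes 5 were positive and 5 negative, with a median log2 fold change of 0.03 (0.00 over all tested genes). Across libraries of the same genotype, in contrast, several of these genes varied widely. Over all 10 libraries Socs3 was related to Il1b, Stat3 and Tnfrsf1b by Pearson r, as described below. The pairs with Il1b and Tnfrsf1b were examined after the values were seen. Spearman's rho of Socs3 with Stat3 and with Tnfrsf1b did not pass over all 45 pairs (permutation, adjusted p = 0.0629 for both).

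**Figure D1:**
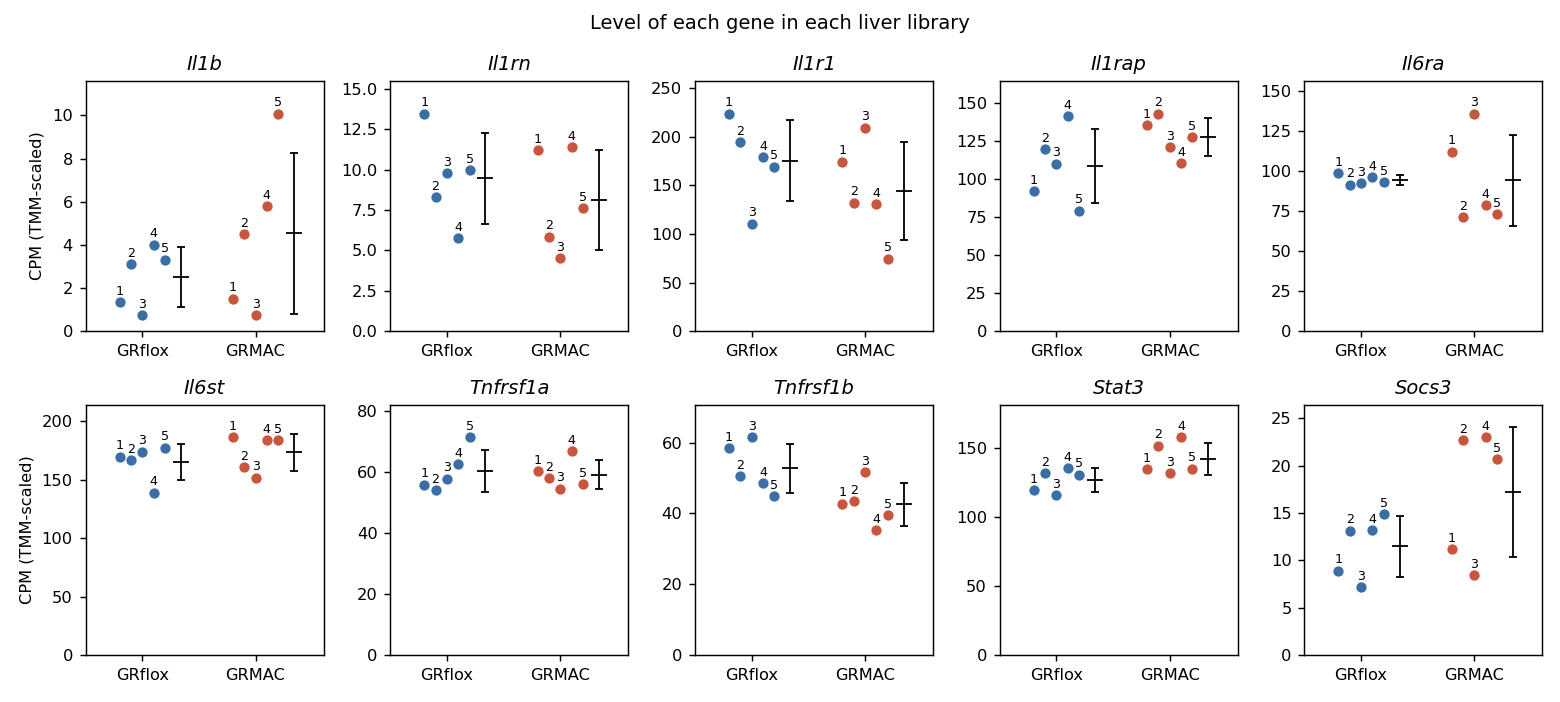
TMM-scaled CPM of the 10 genes, with 1 panel per gene and an axis from 0. Each point is 1 library, numbered as in the labels, with the mean and SD (n = 5) at its right; in every panel the ranges overlap, and for Il6ra all GRflox points lie in a gap between the GRMAC points.

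The sequences before the transcription start are shown for Socs3, Tnfrsf1b and Il1b, genes picked after the values were seen. Across the libraries the level of Socs3 was related to that of Il1b positively and that of Tnfrsf1b negatively, by Pearson r. They are RefSeq promoter windows (GRCm38.p6, the assembly of mm10), read 5′ to 3′ on the gene's strand and cut to bases outside annotated exons; capitals mark the STAT motif TTCNNNGAA, which reads the same on both strands. The Socs3 window is chr11:117969452-117969616 (minus strand), that of Tnfrsf1b is chr4:145246871-145247120 (minus strand) and that of Il1b is chr2:129371140-129371389 (minus strand).
Socs3: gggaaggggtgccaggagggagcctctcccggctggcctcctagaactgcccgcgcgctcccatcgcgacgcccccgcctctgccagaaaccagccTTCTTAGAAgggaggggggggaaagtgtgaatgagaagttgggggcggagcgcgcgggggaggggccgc
Tnfrsf1b: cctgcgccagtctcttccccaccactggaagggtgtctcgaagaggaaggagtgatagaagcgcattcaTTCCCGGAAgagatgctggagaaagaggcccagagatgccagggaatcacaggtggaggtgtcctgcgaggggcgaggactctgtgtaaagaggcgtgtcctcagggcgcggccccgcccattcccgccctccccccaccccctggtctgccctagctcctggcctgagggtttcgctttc
Il1b: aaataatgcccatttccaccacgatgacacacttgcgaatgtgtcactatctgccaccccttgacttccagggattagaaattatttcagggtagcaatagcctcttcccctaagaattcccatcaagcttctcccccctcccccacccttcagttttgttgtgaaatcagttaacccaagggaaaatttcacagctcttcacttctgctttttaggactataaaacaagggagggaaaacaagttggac
The Socs3 match TTCTTAGAA begins 154 bases before the start, and the Tnfrsf1b match TTCCCGGAA begins 181 bases before it. All 10 genes had a window, 13 windows in all, counted before the cut to bases outside exons. After the cut the Il6ra window held no bases and that of Tnfrsf1a held no match to the STAT motif. Over the full 250 bases before the start the motif was found in 3 of the 13 windows, those of Socs3, Tnfrsf1a and Tnfrsf1b, and in 7.02% of 32851 windows of all genes. The glucocorticoid receptor half-site AGAACA, searched on both strands, was in 2 of the 13 (1 window of Il1r1 and that of Stat3) and in 16.1% of all windows. These matches describe letters in a short window and were not tested for binding.

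Il1b (NM_008361, mm10 chromosome 2, 129364580 to 129371120) was the least abundant and the most variable of the 10. Its levels in GRflox 1 to 5 were 1.37, 3.12, 0.761, 4.02 and 3.32 CPM, from 20 to 107 counts. In GRMAC 1 to 5 they were 1.51, 4.5, 0.754, 5.80 and 10.1 CPM, from 19 to 245 counts. The highest 3 values of all were GRMAC libraries, yet the lowest value was also from GRMAC, so the GRMAC range held the whole GRflox range. The means were 2.52 ± 1.39 and 4.53 ± 3.73 CPM (SD, n = 5), a log2 fold change of 0.84 ± 0.68 (SE; adjusted p = 0.588, edgeR). The highest GRMAC library was 13.4 times the lowest, against 5.28 times in GRflox. Without GRMAC 5, the library with the highest Il1b, the log2 fold change was 0.32.

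Il1rn (NM_031167, chromosome 2, 24336860 to 24351491), the antagonist, was at 13.5, 8.31, 9.78, 5.74 and 9.97 CPM in GRflox 1 to 5. It was at 11.2, 5.85, 4.52, 11.4 and 7.61 CPM in GRMAC 1 to 5. Both groups spread over about the same range, and the log2 fold change was −0.22 ± 0.29 (adjusted p = 0.752, edgeR). Per kilobase of exon, Il1rn exceeded Il1b in 4 of 5 GRflox libraries and 3 of 5 GRMAC libraries. The ratio of the antagonist to the agonist ran from 0.784 to 7.04 in GRflox (median 1.64) and from 0.414 to 4.07 in GRMAC (median 1.08). It was above 3 in GRflox 1, GRflox 3, GRMAC 1 and GRMAC 3, the 4 libraries with the lowest Il1b. Because Il1b is the divisor of this ratio, a low Il1b by itself raises it.

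The other ligands were scarce in whole liver. Il6 had 0 to 2 counts per library in GRflox and in GRMAC, Tnf had 0 to 6 and 1 to 10, and Il1a had 6 to 17 and 3 to 16. Il1r2, the decoy receptor that binds IL-1 without signalling, had 0 to 2 and 0 to 3 counts. These 4 genes lay below the filter on low counts and were too low to compare; all 10 genes of the set passed it. Il33, an alarmin of the IL-1 family, was at 0.915 ± 0.218 and 1.18 ± 0.358 CPM (log2 fold change 0.36 ± 0.25, adjusted p = 0.492, edgeR).

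Il1r1 (NM_008362, chromosome 1, 40225080 to 40316177), the signalling receptor for IL-1, was at 223.9, 194.6, 110.8, 178.9 and 169.3 CPM in GRflox 1 to 5. In GRMAC 1 to 5 it was at 174.5, 132.4, 209.5, 131 and 74.7 CPM. The lowest library of each group, GRflox 3 and GRMAC 5, stood well below its neighbours, and the log2 fold change of −0.28 ± 0.28 did not pass (adjusted p = 0.668, edgeR). Il1rap (NM_001159317, chromosome 16, 26581705 to 26725147), the chain that completes the receptor, was at 92.0, 119.6, 109.9, 141.1 and 79.1 CPM in GRflox. In GRMAC it was at 135, 142.7, 120.8, 110.4 and 127.3 CPM. All 5 GRMAC values lay above the GRflox median, but GRflox 4 was higher than 4 of them (0.23 ± 0.14, adjusted p = 0.435, edgeR). One count per gene does not separate membrane-bound from soluble forms of these receptors.

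Il6ra (NM_001310676, chromosome 3, 89869324 to 89913196), the chain that binds IL-6, had nearly equal means, 94.5 ± 2.93 CPM in GRflox and 94.3 ± 28.5 CPM in GRMAC (SD, n = 5). The GRflox libraries held 98.6, 91.6, 92.4, 96.5 and 93.4 CPM. The GRMAC libraries held 112.2, 71.5, 135.9, 78.8 and 73.3 CPM. The coefficient of variation was 3.11% in GRflox and 30.2% in GRMAC, and no GRMAC value fell within the GRflox range: 2 were above it and 3 below. That difference in spread was seen after the values were known and was not tested. The fold change was 0.00 ± 0.17 on the log2 scale (adjusted p = 0.996, edgeR), with a sign that changed between settings. Il6st (NM_010560, chromosome 13, 112464070 to 112506860), the chain shared by the IL-6 family, was at 169.9, 167.1, 174.1, 139 and 177.7 CPM in GRflox and at 186.4, 161.2, 152, 184.1 and 183.9 CPM in GRMAC. It was among the steadiest of the 10, with 1.28 and 1.23 times between the highest and the lowest library (0.07 ± 0.08, adjusted p = 0.724, edgeR).

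Tnfrsf1a (NM_011609, chromosome 6, 125349723 to 125362483), the receptor through which TNF triggers NF-kB and cell death, had means of 60.4 ± 6.96 and 59.2 ± 4.81 CPM (SD, n = 5). It was at 55.9, 54.1, 57.9, 62.6 and 71.5 CPM in GRflox 1 to 5 and at 60.3, 58.2, 54.6, 67.0 and 56.2 CPM in GRMAC 1 to 5. The log2 fold change was −0.03 ± 0.08 (adjusted p = 0.897, edgeR), and its sign changed when GRflox 5 or GRMAC 3 was left out.

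Tnfrsf1b (NM_011610, chromosome 4, 145212368 to 145246870), the TNF receptor of immune and endothelial cells, had the lowest p of the 10. GRflox 1 to 5 held 58.4, 50.5, 61.5, 48.5 and 44.9 CPM, and GRMAC 1 to 5 held 42.8, 43.4, 51.6, 35.3 and 39.6 CPM. Of the GRMAC libraries 4 lay below every GRflox library, and GRMAC 3 lay inside the GRflox range. The means were 52.8 ± 6.96 and 42.5 ± 6.02 CPM (SD, n = 5). The log2 fold change of −0.31 ± 0.11 did not pass (adjusted p = 0.183, edgeR; unadjusted p = 0.0121). The ratio of Tnfrsf1a to Tnfrsf1b per kilobase ran from 1.67 to 2.82 in GRflox and from 1.87 to 3.36 in GRMAC.

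Because Il1b, Il1rn and Tnfrsf1b are known in myeloid cells, marker sums of these cells are given beside them; in whole liver, fewer cells of a type and less RNA per cell cannot be told apart. The 13 Kupffer cell markers summed to 279 to 373 CPM in GRflox and 301 to 425 CPM in GRMAC (exact permutation test, p = 0.841, adjusted p = 0.841 over 3 sums). Among them Cd163 fell over all genes and none rose. The 9 monocyte markers summed to 36.0 to 50.5 CPM in GRflox and 24.5 to 38.8 CPM in GRMAC (exact permutation test, p = 0.0238, adjusted p = 0.0714). Most of that sum was Lyz2, the gene that holds the Cre insertion; the other 8 summed to 7.95 to 10.2 and 8.37 to 9.2 CPM (exact permutation test, p = 0.302), an alternative added after the values were seen. Of the 9 monocyte markers 4 lay below the filter, Ly6c2 and Cx3cr1 among them. The neutrophil markers numbered 11, of which 9 lay below the filter, S100a8, S100a9 and Ly6g among them, and the sums were 3.31 to 5.26 and 3.77 to 6.65 CPM (exact permutation test, p = 0.794, adjusted p = 0.841). Sinusoidal endothelial cell markers, 9 in all, summed to 275 to 310 and 211 to 346 CPM. No marker of these 4 lists was at 0 in every library. The part of these cells in the values of Il1b, Il1rn and Tnfrsf1b was not tested.

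Stat3 (NM_011486, chromosome 11, 100886810 to 100939511), the transcription factor that IL-6 activates, was at 119.5, 131.8, 115.7, 135.4 and 130.5 CPM in GRflox. In GRMAC it was at 134.5, 151.5, 131.4, 157.5 and 134.9 CPM. All 5 GRMAC libraries exceeded the GRflox median and 2 exceeded the GRflox maximum. The means were 126.6 ± 8.51 and 142 ± 11.8 CPM (SD, n = 5). The log2 fold change of 0.17 ± 0.07 did not pass (adjusted p = 0.25, edgeR; unadjusted p = 0.0306). Stat3 activity depends on phosphorylation, which RNA levels do not show.

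Socs3 (NM_007707, chromosome 11, 117966087 to 117969366), the STAT3-induced inhibitor of IL-6 signalling, was at 8.90, 13.1, 7.19, 13.2 and 14.9 CPM in GRflox 1 to 5. In GRMAC 1 to 5 it was at 11.2, 22.7, 8.41, 23.0 and 20.6 CPM. The GRMAC libraries split into 3 above every GRflox value (20.6 to 23.0 CPM) and 2 within the GRflox range. The means were 11.5 ± 3.25 and 17.2 ± 6.87 CPM (SD, n = 5). The log2 fold change of 0.59 ± 0.32 did not pass (adjusted p = 0.402, edgeR; unadjusted p = 0.0997).

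**Figure D2:**
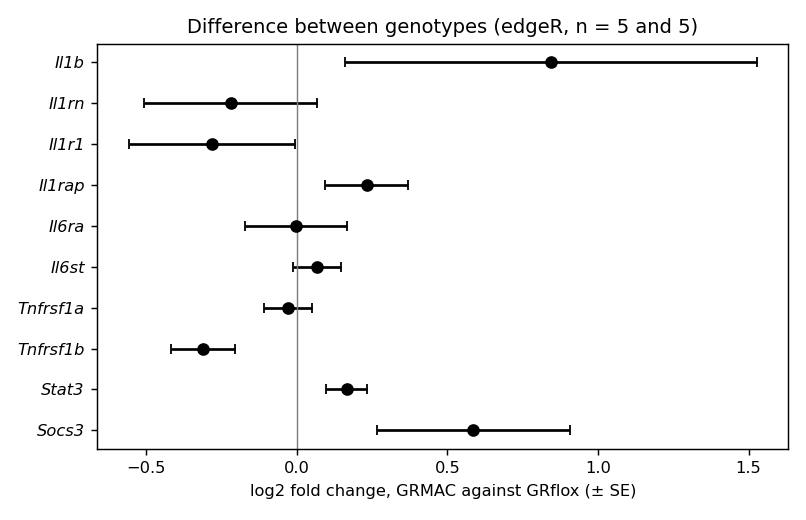
Log2 fold change of GRMAC against GRflox for the 10 genes, from edgeR; points are estimates and bars are 1 SE on each side. None passed at an adjusted p under 0.05, and Il1b and Socs3 have both the largest estimates and the longest bars.

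Per kilobase of exon, the receptor chains and Stat3 were the more abundant genes and the ligands and Socs3 the less abundant. In GRflox the order of CPM per kilobase was Il1rap (33.8 ± 7.53), Il1r1 (30.2 ± 7.16), Tnfrsf1a (28 ± 3.23), Stat3 (20.9 ± 1.41), Il6st (19.1 ± 1.77), Tnfrsf1b (13.8 ± 1.82), Il6ra (10.9 ± 0.34), Socs3 (4.49 ± 1.27), Il1rn (3.82 ± 1.13) and Il1b (1.86 ± 1.02; SD, n = 5). The library values of the first 3 overlapped, as did those of Stat3 with Il6st, of Il6st with Tnfrsf1b, of Socs3 with Il1rn and of Il1rn with Il1b. Tnfrsf1a lay above Stat3, Tnfrsf1b above Il6ra and Il6ra above Socs3 in every GRflox library. In GRMAC the order differed in 2 places, each between genes whose values overlapped: Tnfrsf1a (27.5 ± 2.23) came before Il1r1 (24.8 ± 8.73), and Il1b (3.34 ± 2.75) before Il1rn (3.28 ± 1.26). The lengths are those of 1 GENCODE transcript per gene, and a level per kilobase would change if the liver used another transcript.

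**Figure D3:**
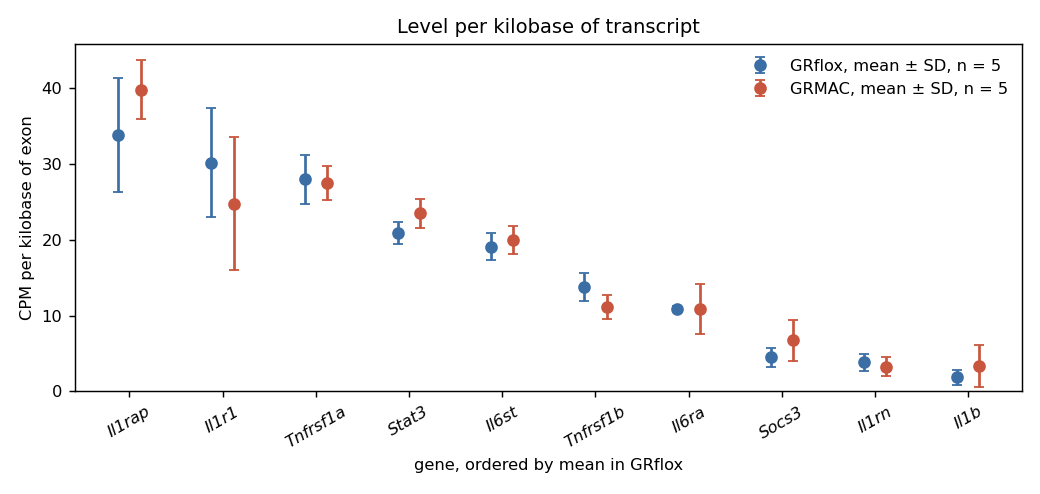
CPM per kilobase of exon for the 10 genes, ordered by their GRflox mean; points are means and bars are SD over 5 libraries of each genotype. Means run from 33.8 for Il1rap to 1.86 for Il1b in GRflox, and every gene's bars overlap between the genotypes.

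Libraries with more Socs3 also had more Stat3. Of 4 pairs examined as a factor or ligand with its target or antagonist, or as 2 chains of a receptor, Stat3 and Socs3 were related over the 10 libraries (log2 CPM, Pearson r = 0.857, permutation p = 0.00087, adjusted p = 0.00348; Spearman's rho = 0.818, permutation p = 0.00569, adjusted p = 0.0228). Without GRflox 3 and GRMAC 4, the libraries farthest from the median of Stat3, r was 0.74 over 8 libraries (exact permutation p = 0.0289). With each genotype centred on its own mean r was 0.827; 5 libraries of a genotype are too few for a correlation of their own. The other 3 pairs did not pass: r was −0.0393 for Il1b and Il1rn, −0.309 for Il6ra and Il6st, and −0.224 for Il1r1 and Il1rap (rho −0.0182, −0.139 and −0.0909; permutation p from 0.384 to 0.914 for r and adjusted p from 0.709 to 0.914). Without the 2 libraries farthest from the median r was −0.537, −0.23 and −0.257.

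All 45 pairs of the 10 genes were then examined, a step added after the values were seen, and 4 passed when r was adjusted over the 45. Il1b and Socs3 were the closest (r = 0.924, permutation p = 0.00031, adjusted p = 0.0139; rho = 0.939, adjusted p = 0.0117). Their r was 0.863 without GRflox 3 and GRMAC 3 (exact permutation p = 0.00605) and 0.944 with genotypes centred. For Stat3 and Socs3 the permutation p adjusted over the 45 pairs was 0.0166 for r and 0.0629 for rho, so rho did not pass. The share of related pairs among other tested genes was not computed. With genotypes centred, Fgfr3, the highest of all tested genes, had r = 0.958 with Il1b, beside 0.944 for Socs3. Whether the 4 relations are particular to this set was not tested.

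Tnfrsf1b went the opposite way. It was lower where Socs3 was higher (r = −0.872, permutation p = 0.00111, adjusted p = 0.0166; rho = −0.842, adjusted p = 0.0629) and where Stat3 was higher (r = −0.865, permutation p = 0.0017, adjusted p = 0.0191; rho = −0.806, adjusted p = 0.0629). With Socs3, r was −0.766 without GRflox 3 and GRMAC 4 (exact permutation p = 0.0288) and −0.855 with genotypes centred. With Stat3, r was −0.662 without the same libraries (exact permutation p = 0.0675), so that relation rests in part on them; it was −0.763 with genotypes centred. Il6ra had negative r with Il1b (−0.784) and with Socs3 (−0.771), neither of which passed over the 45 pairs (permutation, adjusted p = 0.0546 for both; rho −0.758 and −0.709). These correlations share libraries and TMM factors, and they show no order of cause. The permutations treat the libraries as interchangeable, and those numbered 1 and 3 had the lowest Socs3 and Il1b in both genotypes. If equal numbers marked a shared litter or day, which the labels do not say, the p-values might be too small.

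**Figure D4:**
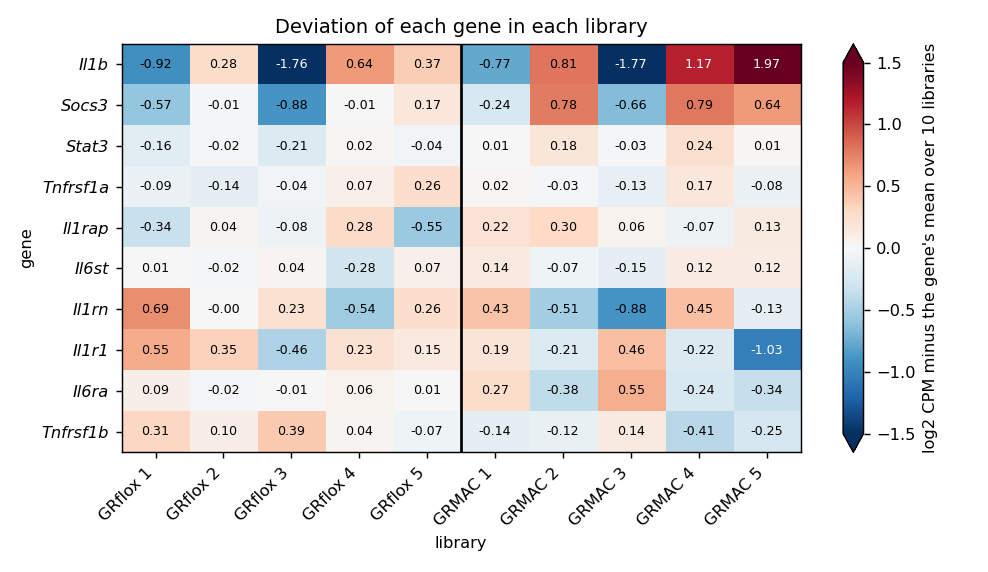
Log2 CPM of each gene in each library minus the gene's mean over the 10 libraries, printed in the cells; red is above and blue below the mean, the line separates the genotypes, and genes were arranged after their values were seen. Il1b and Socs3 are lowest in GRflox 3 and GRMAC 3 and above their means in GRMAC 2, GRMAC 4 and GRMAC 5, where Tnfrsf1b and Il6ra are below theirs.

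**Figure D5:**
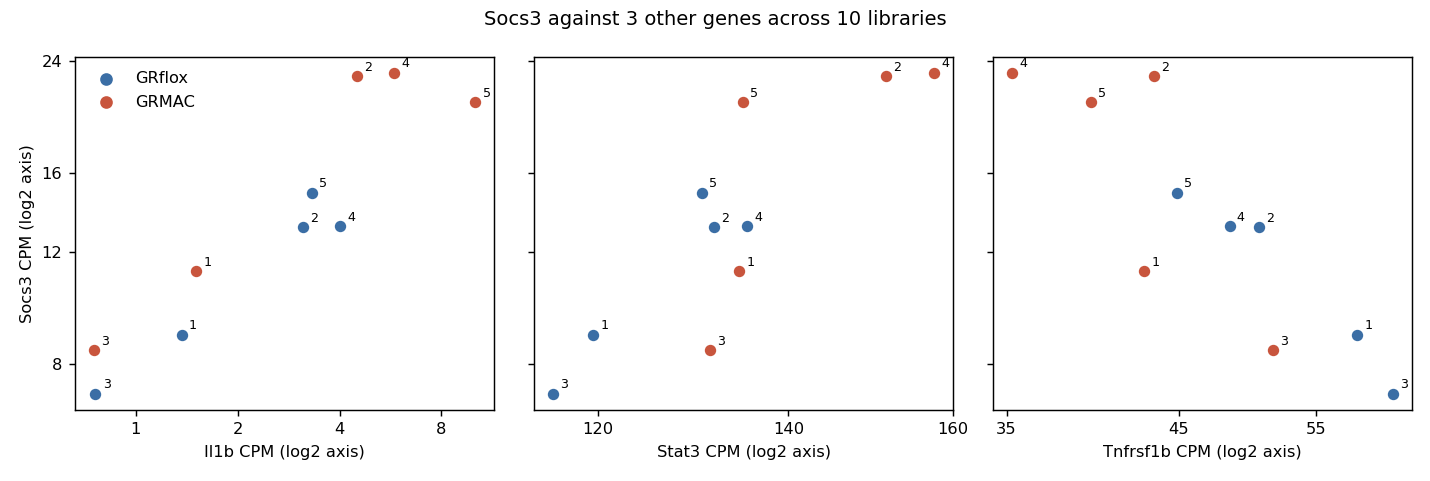
Socs3 CPM against the CPM of Il1b, Stat3 and Tnfrsf1b, on log2 axes; each point is 1 of 10 libraries, coloured by genotype and numbered as in the labels. Points rise from left to right for Il1b (r = 0.924) and Stat3 (r = 0.857) and fall for Tnfrsf1b (r = −0.872), with both genotypes along the same band.

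For the 3 genes of the set that varied most over the 10 libraries, the tested genes with the most similar pattern were found by Pearson r of log2 CPM with each genotype centred, as a description over 10 libraries. Those most like Il1b were Fgfr3 (r = 0.958), Gprc5c (0.954) and Rnf43 (0.95). Those most like Socs3 were Wdr1 (0.949), Rnf43 (0.946) and Il1b itself (0.944). Rnf43 was therefore near both, at 13.2 to 24.4 CPM in GRflox and 14.6 to 29.5 CPM in GRMAC. Those most like Il1rn were Adipor2 (0.966), Acad11 (0.944) and Plbd1 (0.943). Each is the highest among all tested genes, so the values carry no test.

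Other genes of the 3 pathways did not pass over all genes either. Of 24 further IL-1 pathway genes 19 were tested, and none passed with edgeR (median log2 fold change 0.04). Irak2, a kinase that carries the signal from the IL-1 receptor, came closest: GRflox 1 to 5 held 56.7, 54.1, 50.9, 53.2 and 55 CPM and GRMAC 1 to 5 held 43.0, 44.2, 35.8, 42.3 and 49.0 CPM. Its groups did not overlap, and the log2 fold change was −0.33 ± 0.07 (adjusted p = 0.0649, edgeR; adjusted p = 0.00567 in the authors' deposited table). Without GRMAC 5, the GRMAC library with the highest Irak2, it passed at −0.39 ± 0.07 (adjusted p = 0.0375, edgeR). When any other single library was left out it did not pass (adjusted p from 0.072 to 0.15, edgeR). Il18, an IL-1 family cytokine, was at 3.84 ± 0.955 and 5.72 ± 0.719 CPM (0.58 ± 0.16, adjusted p = 0.116, edgeR; adjusted p = 0.028 in the authors' deposited table). Tab2, an adaptor of the kinase TAK1, was at 0.13 ± 0.06 on the log2 fold scale (adjusted p = 0.304, edgeR). Of the 21 genes of this list with an adjusted p in the authors' deposited table, Irak2 and Il18 were the only ones under 0.05. Over all genes of that table the share under 0.05 was 3.33%.

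Of 22 genes of the IL-6 family pathway 17 were tested and none passed (median −0.02). The lowest p were those of Pias3, an inhibitor of STAT3 (0.27 ± 0.10, adjusted p = 0.192, edgeR), Il11ra1, the IL-11 receptor chain (−0.25 ± 0.09, adjusted p = 0.199), and Ptpn6, a phosphatase of blood cells (−0.17 ± 0.06, adjusted p = 0.199). Of 25 TNF pathway genes 22 were tested and none passed (median −0.03). Ikbkg, the regulatory subunit of the IkB kinase, was at 0.18 ± 0.07 (adjusted p = 0.207, edgeR), Rbck1, of the linear ubiquitin ligase, at −0.15 ± 0.06 (adjusted p = 0.231), and Ripk1, the kinase bound to TNFRSF1A, at 0.13 ± 0.06 (adjusted p = 0.312). No gene of these 2 lists was under 0.05 in the authors' deposited table, where 3.33% of all its genes were.

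Hepatocyte genes known to respond to STAT3 were also read out: of 27, 25 were tested, and none passed over all genes with edgeR. Their median log2 fold change was 0.25, with 21 positive and 4 negative, beside 0.00 over all tested genes. The values ran from −0.525 to 0.676. At an unadjusted p under 0.05 (edgeR) 6 were higher and 2 lower, beside 16.3% of all tested genes in either direction. The list includes acute phase genes whose direction in these libraries was known when it was written, so it is not independent evidence. The lowest p were those of the 3 fibrinogen chains. Fga was at 3156, 3787, 3505, 3680 and 3722 CPM in GRflox and at 4606, 5932, 4362, 4600 and 5040 CPM in GRMAC, with no overlap (0.46 ± 0.09, adjusted p = 0.0623, edgeR). With 2 other scalings Fga passed in edgeR, at an adjusted p of 0.0497 with the library total alone and 0.0483 with the upper quartile. It did not pass in edgeR with the size factors of DESeq2 (adjusted p = 0.0623) or with the GC and length correction (adjusted p = 0.0819). Nor did it pass when any 1 library was left out (adjusted p from 0.0604 to 0.118, edgeR). Fgb (0.37 ± 0.09, adjusted p = 0.0889, edgeR) and Fgg (0.40 ± 0.10, adjusted p = 0.0914, edgeR) did not overlap either. Apcs, which encodes serum amyloid P, is named after its values were seen (0.46 ± 0.13). It and the 3 fibrinogen chains were the 4 genes of this list whose groups did not overlap, beside 4.05% of all tested genes. They were also the 4 under 0.05 in the authors' deposited table, all higher in the knockout, where 3.33% of all its genes were under 0.05.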

How the data were processed

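RNA of 10 liver samples (5 GRflox, 5 GRMAC, by the genotype label) was sequenced as paired ends from polyadenylated RNA, per the labels. The authors deposited a table of raw counts per gene, 1 RefSeq transcript and symbol a row. A second deposited table gives, per the file headers, log2 fold changes of the knockout over the control. It also gives adjusted p-values, per the file headers, and 10 further columns of size-factor scaled signal per library, which the authors deposited and which were not used here. HISAT2 2.1.0, DESeq2 1.24.0 and mm10 are named in the submitters' processing notes; the counting program, strand setting and treatment of introns are not given in the sources used here.

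The filter filterByExpr of edgeR 4.0.16 kept 12558 of 19764 genes and removed 0.0348% of counts. The whole table was fitted by the quasi-likelihood test with TMM scaling and robust estimation (R 4.3.3), with no covariate and Benjamini-Hochberg adjustment at 0.05. SE came from the fold change and F. Log2 CPM used a prior count of 2. Correlations used 100000 resamples, or all orders for 8 or 9 libraries, two-sided. Marker sums used the 252 assignments of 5 against 5, two-sided, whose smallest p is 0.00794. The length column of the table is the span of the gene, so exonic length was taken from GENCODE M21 transcripts by RefSeq accession (10 of 10 genes). Starts were printed with the first base counted as 1. Scripts were tested on simulated data.

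The genes, lists and rules were chosen with earlier results of these data known. Named pathway genes are the 3 of lowest p in each list, with any past the threshold, and fixed ligands and decoys. Alternatives were DESeq2 1.42.0, limma-voom (limma 3.58.1), other scalings and filters, a block for replicate numbers, and the omission of 1 library at a time; a GC and length correction (splines with 5 degrees of freedom, 99.7% of tested genes), the leave-one-out correlations, all 45 pairs and monocyte markers without Lyz2 were added after the data were seen.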

Additional observations from a re-analysis of the deposited data

Results flagged for a closer look

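Of 68 groups of 5 values examined, 3 held a value far from the other 4, where chance gives about 3.4 (1 in 20). Il6st, the shared receptor chain of the IL-6 family, was at 139 CPM in GRflox 4, against 167 to 178 CPM in the other GRflox libraries. The neutrophil markers summed to 6.65 CPM in GRMAC 4, against 3.77 to 4.14 CPM in the other GRMAC libraries. The sinusoidal endothelial markers summed to 211 CPM in GRMAC 2, against 318 to 346 CPM in the others.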

How the results depend on the processing

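None of the 10 genes passed under any setting except the replicate block, described below. The 22 genes called over the whole table became 34 with no filter, 424 with DESeq2, 7 with the GC and length correction, 8 with limma-voom, 8 when edgeR ran with non-robust estimation, and 5 (without GRflox 3 or GRflox 5) to 47 (without GRMAC 5) when 1 library was left out; the cause was not tested. Signs changed for the 2 genes whose fold change was nearest to 0. Il6ra, −0.00264 in the main test, was at 0.0161 with the library total alone, 0.00760 with the upper quartile, 0.00153 with a CPM of at least 1 in 5 libraries, and −0.17 to 0.0857 when 1 library was left out. Tnfrsf1a was at 0.0206 with the GC and length correction and −0.0756 to 0.0400 when 1 library was left out. The r of Il1b and Il1rn was 0.0258 with genotypes centred and −0.488 to 0.101 when 1 library was left out. When 1 library was left out, the difference in summed CPM, GRMAC minus GRflox, was −13.4 to 17.6 for Kupffer cell markers and −0.354 to 0.435 for neutrophil markers. For monocyte markers it was −14.0 to −9.62 (adjusted p = 0.0238 without GRMAC 4, exact permutation test). With all libraries but without Lyz2, the difference for monocyte markers was −0.527 (exact permutation test, p = 0.302). With DESeq2 Irak2, Il18, Fga, Fgb, Fgg and Lyz2 passed (adjusted p from 0.000201 to 0.028). The r of Stat3 and Socs3 stayed between 0.802 and 0.912.

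The labels do not say that equal numbers mark a shared litter or day, and libraries sharing a number had weakly related deviations (r over genes 0.04, 0.17, 0.15, −0.11 and 0.05), so the block is an alternative only. With the replicate block 81 genes passed, 1 of the 10 among them: Socs3, at 0.54 ± 0.10 (adjusted p = 0.0487, edgeR). Irak2 (−0.34, adjusted p = 0.0431, edgeR), Fga (0.45, adjusted p = 0.0406) and Lyz2 (−0.63, adjusted p = 0.00579) also passed with the block. As a hint from the data and not from the design, the libraries numbered 1 and 3 had the lowest Socs3 and Il1b in both genotypes. With counts of 19 to 245 per library, Il1b is the gene whose values depth limits most.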

Other observations

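Of the 45 pairs of the 10 genes, 10 had an unadjusted permutation p under 0.05 for r, and 4 of these were not described above. None of the 4 passed over the 45 pairs. The share of pairs under 0.05 among other tested genes was not computed. Il1b, the agonist, was lower where Tnfrsf1b was higher (r = −0.767, adjusted p = 0.0692 by permutation) and higher where Stat3 was higher (r = 0.657, adjusted p = 0.173 by permutation). The antagonist Il1rn was higher where Il6st was higher (r = 0.734, adjusted p = 0.0811 by permutation), and r was 0.467 without GRflox 4 and GRMAC 3. The receptor genes Il1r1 and Il6ra had r = 0.692 (adjusted p = 0.144 by permutation), and 0.753 without GRflox 3 and GRMAC 5. Spearman's rho for the 4 was −0.818, 0.782, 0.709 and 0.697.

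B and plasma cell markers summed to 2.58 to 4.18 CPM in GRflox and 3.83 to 6.21 CPM in GRMAC, and cholangiocyte markers to 27.7 to 35.4 and 29.0 to 49.6 CPM. T and NK cell markers summed to 1.83 to 2.36 and 1.77 to 3.45 CPM, with 8 of 9 below the filter on low counts. Stellate cell and fibroblast markers summed to 210 to 257 and 215 to 287 CPM.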
